A study of Mus musculus with 8 samples.

Results

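The genes described here encode subunits of the oxidative phosphorylation machinery, from both the nuclear and the mitochondrial genome, and 8 assembly factors of complex I whose symbols match. They were taken from the deposited count table by symbol, as the protein genes of the mitochondrial genome and the nuclear genes whose symbols start with Ndufa, Ndufb, Ndufc, Ndufs, Ndufv, Uqcr, Cox4i, Cox5, Cox6, Cox7, Cox8 or Atp5, with Sdha to Sdhd, at a summed count of at least 80 over all pools. Of 120 matching symbols, 13 were not protein genes and 4 had too few counts, and 1 complex I subunit gene was not part of the set, which left 102 genes of the 55890 in the table. Of these, 89 are nuclear and 13 are mitochondrial. Just inside the minimum were Cox4i2 with 338 counts and Cox7a1 with 373, and just outside it were Cox7b2 with 44.0 counts and Cox8b with 9.

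The study sequenced poly(A)-selected RNA of the hypothalamus in 8 libraries, each pooled from 2 females aged 16 weeks, with 4 pools for each genotype. POMC-C451Af/f mice carry a POMC-Cre transgene and a floxed C451A allele of Esr1, which encodes estrogen receptor alpha. The sample labels call the controls wildtype and the paper calls them C451Af/f littermates, and neither gives them the Cre transgene. The Cre is driven in cells that express Pomc, a small share of all hypothalamic cells, so that most RNA in each pool comes from cells in which it was not active. The total estimated count ran from 36095253 to 40498166 in the POMC-C451Af/f pools (median 36608052) and from 37841365 to 48942116 in the control pools (median 41723908). Values by pool are given below in 1 order, POMC-C451Af/f replicates 1 to 4 and then control replicates 1 to 4.

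Esr1 itself was at 11.6, 12.2, 9.99 and 10.9 CPM (counts scaled to a library size of 1e+06 after TMM) in POMC-C451Af/f pools and at 12.3, 12.8, 11.6 and 16.0 CPM in control pools. The groups overlapped. In the fit described below, Esr1 had a log2 fold change of -0.23, a standard error of 0.104, an unadjusted p of 0.0462 and an adjusted p of 0.878, and it was not called. Gene counts cannot distinguish the mutated from the intact transcript. As a check of the labelled tissue, 16 genes known from the hypothalamus were summed in each pool. The sum was 1358, 1565, 950 and 1181 CPM in POMC-C451Af/f pools and 1843, 1325, 1559 and 1283 CPM in control pools, with Pmch, the precursor of melanin-concentrating hormone, as its most abundant gene. Every gene of that list held a count in at least 1 pool, and Kiss1 was the only 1 with a mean under 1 CPM.

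Oxidative phosphorylation passes electrons from NADH and succinate through complexes I to IV of the inner mitochondrial membrane to oxygen, and complex V, the ATP synthase, uses the proton gradient this builds to make ATP. Complexes I, III, IV and V are assembled from subunits of both genomes, whereas the subunits of complex II are all nuclear. Neurons draw most of their ATP from this pathway. The mitochondrial genes are transcribed from both strands of a circular genome as long precursors that are then processed. Most of the mRNAs are given poly(A) tails.

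The mitochondrial mRNAs held several times more of each library than the nuclear ones. Their share of all counts was 6.10, 5.97, 6.89 and 6.28 percent in POMC-C451Af/f pools and 6.12, 6.53, 6.39 and 6.24 percent in control pools. POMC-C451Af/f replicate 3 was the highest of the 8 pools and replicate 2 of the same group the lowest, and the groups overlapped. The means were 6.31 ± 0.406 percent (SD, n = 4 pools) in POMC-C451Af/f mice and 6.32 ± 0.176 percent (SD, n = 4 pools) in controls. For the 89 nuclear mRNAs the share was 0.885, 0.890, 0.894 and 0.838 percent in POMC-C451Af/f pools and 0.886, 0.884, 0.861 and 0.847 percent in control pools. The nuclear share was lowest in replicate 4 of each genotype, and again the groups overlapped, at 0.877 ± 0.0257 percent (SD, n = 4 pools) and 0.870 ± 0.0189 percent (SD, n = 4 pools). The order of the pools thus differed between the genomes. In POMC-C451Af/f replicate 4, counts of the mitochondrial mRNAs were 7.49 times those of the nuclear ones, against 6.71 times in replicate 2 of that group and 7.71 times in replicate 3. In the controls this ratio was 6.91, 7.38, 7.42 and 7.36. In bulk RNA, fewer cells of a type and less RNA per cell cannot be told apart, and neither can a different share of cells rich in mitochondria and a different amount of mitochondrial RNA in each cell.

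**Figure D1:**
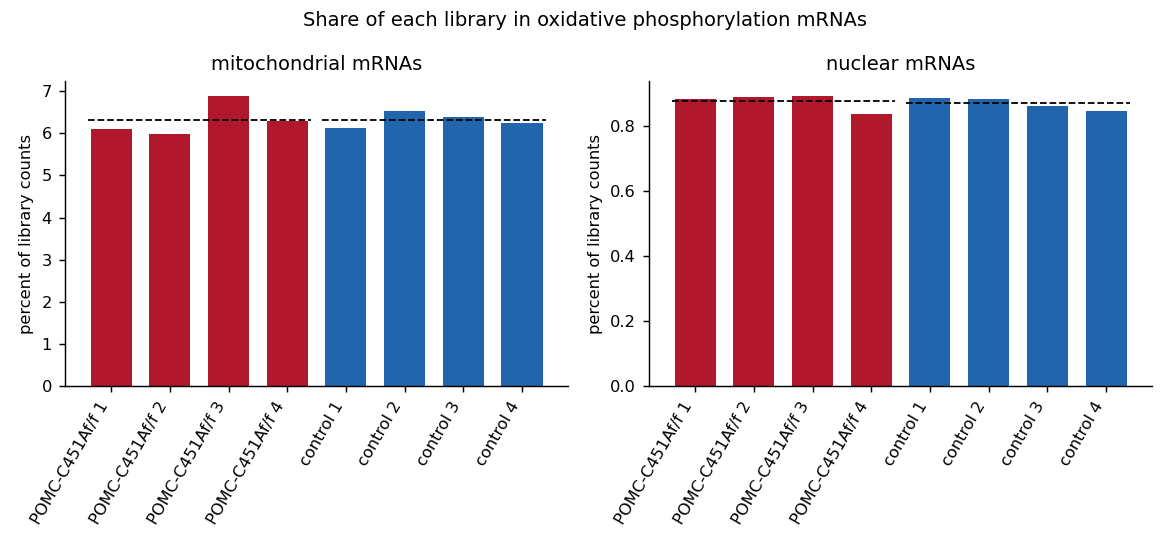
Share of each library's estimated counts held by the 13 mitochondrial mRNAs (left) and the 89 nuclear mRNAs (right), in percent, with 1 bar for each pool (red, POMC-C451Af/f; blue, control) and a dashed line at each group's mean. The mitochondrial share is highest in POMC-C451Af/f replicate 3 at 6.89 percent, and the nuclear share lowest in replicate 4 at 0.838 percent.

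By complex, complex IV took the largest part of the counts of the whole set, at 43.5 percent over the 8 pools. Complex I held 30.2 percent, complex V 14.8 percent, complex III 10.3 percent and complex II 0.965 percent, and the Ndufaf genes, assembly factors of complex I that the symbols also match, held 0.206 percent. The mitochondrial genome supplied 95.0 percent of the counts of complex IV, 89.4 percent of those of complex III, 88.7 percent of those of complex I and 70.9 percent of those of complex V.

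Levels of different genes are compared here per length, as CPM divided by transcript length in kb, where the length is the median over a gene's protein-coding transcripts. On this scale the median of the 13 mitochondrial genes was 4799 ± 327 CPM per kb (SD, n = 4 pools) in POMC-C451Af/f mice and 4802 ± 157 CPM per kb (SD, n = 4 pools) in controls. The median of the 89 nuclear genes was 94.9 ± 3.55 and 94.6 ± 1.80 CPM per kb in the same groups. The ratio of these medians was 47.5, 48.4, 53.7 and 52.7 in POMC-C451Af/f pools and 47.8, 52.2, 52.5 and 50.5 in control pools, so that it was between 47 and 54 in every library. With the longest transcript of each gene as its length the mean ratio was 79.8, since many nuclear genes have transcripts of several lengths. All but 2 of the 13 mitochondrial genes, 11 in number, were above every nuclear member per kb with either length, and the exceptions were mt-Nd3, counted without its copy in the nuclear genome, and mt-Nd6.

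Within the complexes the distance between the genomes differed. The median mitochondrial gene of complex IV was 59.2 times the median nuclear gene per kb, averaged over the 8 pools. In complex V the ratio was 49.4, in complex III 44.5 and in complex I 32.7. With the longest transcript the ratios were 92.1 for complex IV, 98.7 for complex V, 65.9 for complex III and 47.2 for complex I, so that complex I was lowest with either length and the order of complexes IV and V was exchanged. Among nuclear genes alone, median levels per kb were 155 for complex V, 149 for complex IV, 130 for complex III, 89.3 for complex II and 83.2 for complex I. With the longest transcript they were 77.8 for complex V, 95.3 for IV, 88.2 for III, 64.6 for II and 58.3 for I, so that complex V was then after IV and III. The 8 Ndufaf genes had a median of 17.4 CPM per kb, or 9.21 with the longest transcript.

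**Figure D2:**
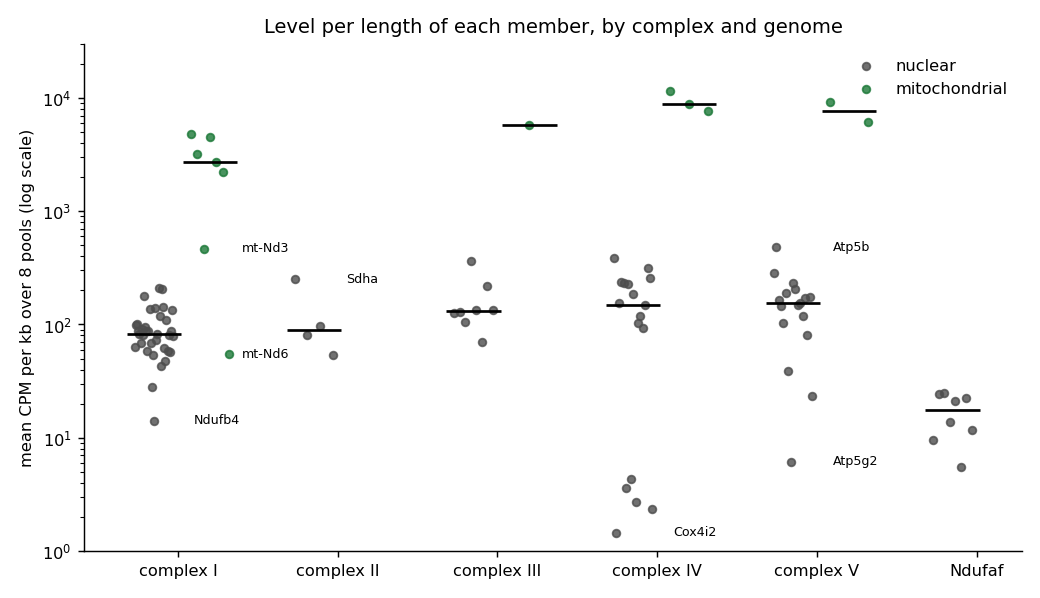
Mean level of each member over the 8 pools in CPM per kb of transcript, on a log scale, by complex, with nuclear genes in grey, mitochondrial genes in green and a line at each group's median. Nuclear genes run from 1.44 (Cox4i2) to 483 (Atp5b) CPM per kb, and mt-Nd3 and mt-Nd6 are the mitochondrial genes within that range.

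No member was called between the genotypes. The test was edgeR's quasi-likelihood test on all genes, with a call at a false discovery rate (FDR) of 0.05 and an absolute log2 fold change over 0.5. Among all 18637 genes tested it called 4, which is 0.0215 percent, and it called 0 of the 102 members, all of which passed the filter on low counts. At an unadjusted p under 0.05 there was 1 member higher in POMC-C451Af/f pools, where 2.70 percent of all genes were, and 0 members lower, where 2.39 percent of all genes were. DESeq2 also called 0 members, with 1 higher and 0 lower at an unadjusted p under 0.05. Among all 18629 genes it tested, DESeq2 called 13, with 2.58 percent higher and 1.81 percent lower at that unadjusted p. The smallest adjusted p of any member was 0.878 in the edgeR fit. Log2 fold changes (POMC-C451Af/f over control) ran from -0.38 to 0.30 over the 102 members, and 95 of them were smaller than 0.1 in size.

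The medians of the groups lay near 0. The median log2 fold change was 0.01 for the 89 nuclear members, 60 of which were above 0, and 0.01 for the 13 mitochondrial members, 8 of which were above 0. Over all tested genes the median was 0.00, with 50.4 percent above 0. For complex I the median was 0.02 over 42 genes, for complex II it was -0.01 over 4 genes, for complex III 0.00 over 9 genes, for complex IV 0.01 over 20 genes and for complex V 0.01 over 19 genes. With total counts in place of TMM the median was -0.005 for complex III and 0.000 for the mitochondrial members, so the sign of medians this small depends on the scaling. Single pools moved the mitochondrial median further. It was -0.051 without POMC-C451Af/f replicate 3, 0.052 without replicate 2 and -0.014 without control replicate 1. The nuclear median was 0.000 without POMC-C451Af/f replicate 3 and 0.034 without replicate 4.

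**Figure D3:**
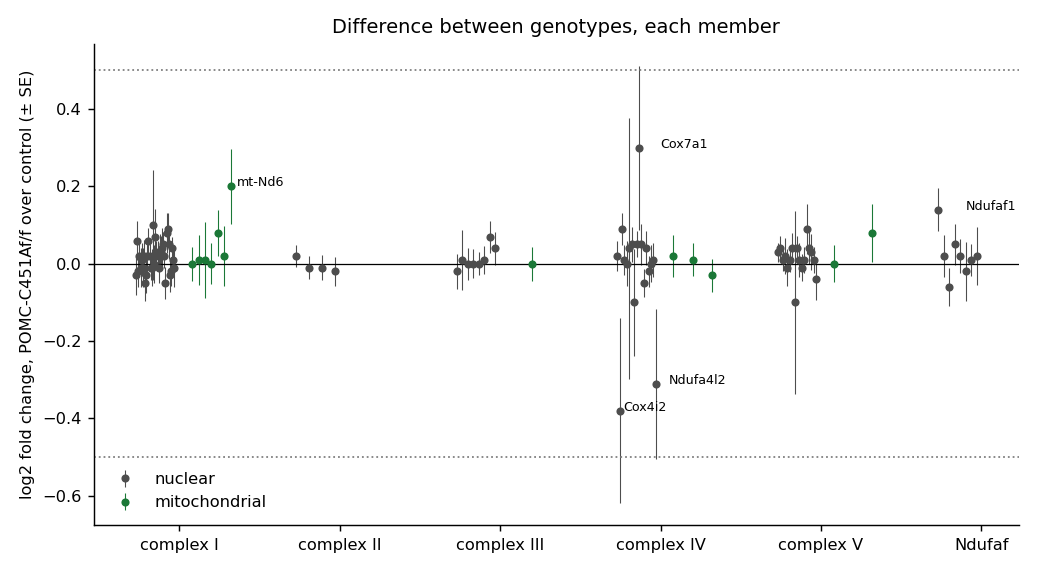
Log2 fold change of POMC-C451Af/f over control for each of the 102 members, with its standard error, by complex (grey, nuclear; green, mitochondrial) and dotted lines at the fold change needed for a call, 0.5 on either side. All members lie between -0.38 and 0.30.

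The 1 member with an unadjusted p under 0.05 was Ndufaf1 (ENSMUSG00000027305, chromosome 2), an assembly factor that joins parts of the membrane arm of complex I. It was at 14.3, 14.5, 15.6 and 13.6 CPM in POMC-C451Af/f pools and at 13, 13.5, 12.9 and 13.3 CPM in control pools. Every POMC-C451Af/f pool was above every control pool, though by as little as 0.1 CPM between the nearest. In the fit this gave 0.14 ± 0.0557 (SE) on the log2 scale, an unadjusted p of 0.0311 and an adjusted p of 0.878. The p of Ndufaf1 was 0.0523 in DESeq2, 0.0542 with the replicate number as a block and 0.172 with the midbrain covariate described further on. It was not under 0.05 in 5 of the 8 fits that left out 1 pool. The groups of 4 pools were fully apart in 2 members, both higher in POMC-C451Af/f pools, against 1.35 percent of all tested genes in that direction and 1.46 percent in the other, where 0 members were. The second was Ndufb5, an accessory subunit of complex I that was chosen for mention after its values were seen. It was at 87.3, 89.0, 88.4 and 86.8 CPM in POMC-C451Af/f pools and at 85.3, 86.6, 86.2 and 85.4 CPM in control pools, with a log2 fold change of 0.03 and an unadjusted p of 0.276.

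The mitochondrial genome encodes 13 proteins, of which 7 belong to complex I, 1 to complex III, 3 to complex IV and 2 to complex V. Per length, mt-Co1, the catalytic subunit of complex IV, was the highest gene of the whole set. It stood at 11034, 10697, 12772 and 11751 CPM per kb in POMC-C451Af/f pools and at 10732, 12126, 11610 and 11189 CPM per kb in control pools. POMC-C451Af/f replicate 3 was highest and replicate 2 lowest, as for the mitochondrial share as a whole. With mt-Co1 set to 100 percent in each pool, mt-Atp6 of the proton channel of complex V averaged 80.2 percent per kb and mt-Co2, the subunit that takes electrons from cytochrome c, 76.7 percent. The other subunits of these complexes, mt-Co3 and mt-Atp8, averaged 66.6 and 53.5 percent, and mt-Cytb, the cytochrome b of complex III, 50.6 percent.

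The membrane subunits of complex I covered a wide range. On the same scale mt-Nd1 was at 41.8 percent of mt-Co1, mt-Nd4 at 39.8, mt-Nd2 at 28.1, mt-Nd4l at 23.8 and mt-Nd5 at 19.3 percent. Far below these, mt-Nd3 was at 4.04 percent and mt-Nd6 at 0.476 percent. The pattern along the genome was alike in all pools: mt-Co1 was highest, mt-Nd6 lowest and mt-Nd3 next to lowest in each of the 8.

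The low counts of mt-Nd6, the only protein gene on the opposite strand, stood apart from those of its neighbours. The libraries were poly(A)-selected, and how far the selection captured mt-Nd6 was not tested, so its low value may not be a low level in the tissue. mt-Nd6 was low in every pool. Its values were 51.1, 54.2, 60.3 and 68.3 CPM per kb in POMC-C451Af/f pools and 44.2, 51.4, 49.8 and 58.0 CPM per kb in control pools. The highest pool was POMC-C451Af/f replicate 4 and the lowest control replicate 1, and the groups overlapped. In the fit mt-Nd6 had a log2 fold change of 0.20, a standard error of 0.0974 and an unadjusted p of 0.0655, with an adjusted p of 0.878. In DESeq2 it was the 1 member with an unadjusted p under 0.05. Of the 89 nuclear members, 67 were above mt-Nd6 per kb, or 50 with the longest transcript.

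**Figure D4:**
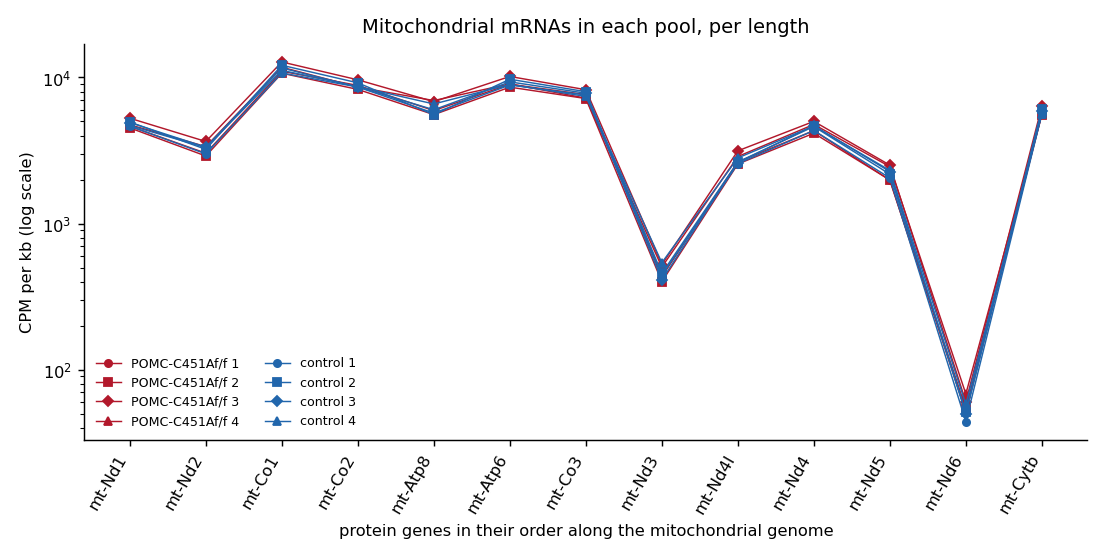
Level of each mitochondrial protein gene in CPM per kb, on a log scale, in its order along the genome, with 1 line for each pool (red, POMC-C451Af/f; blue, control). All 8 pools follow the same profile, with mt-Co1 highest, at 11489 CPM per kb on average, and mt-Nd6 lowest, at 54.7.

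In the mitochondrial genome 2 pairs of genes overlap and are carried on 1 processed mRNA, so their per-length levels can be set side by side on the same molecule. The genes mt-Atp8 and mt-Atp6 share 43 bases, and mt-Nd4l and mt-Nd4 share 7. Both windows are from the GENCODE transcripts on GRCm38, plus strand, chrM:7897-7999 and chrM:10137-10203, with the shared bases in capitals and 30 bases on each side.
mt-Atp8 and mt-Atp6: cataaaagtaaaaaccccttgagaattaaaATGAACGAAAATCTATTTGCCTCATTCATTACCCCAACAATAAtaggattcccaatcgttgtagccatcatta
mt-Nd4l and mt-Nd4: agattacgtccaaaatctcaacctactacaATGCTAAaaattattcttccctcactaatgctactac
Each shared stretch opens with the ATG of the second gene of the pair.

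In each pair the shorter, first gene was lower per kb. The ratio of mt-Atp8 to mt-Atp6 was 0.660, 0.648, 0.672 and 0.769 in POMC-C451Af/f pools and 0.642, 0.571, 0.644 and 0.735 in control pools. Replicate 4 of each genotype was highest, and control replicate 2 lowest. The ratio of mt-Nd4l to mt-Nd4 was 0.610, 0.616, 0.629 and 0.603 in POMC-C451Af/f pools and 0.593, 0.572, 0.559 and 0.604 in control pools. Control replicate 4 lay within the range of the POMC-C451Af/f pools and the other controls under it. Neither ratio was tested. Counts here are estimates shared out among transcripts by Salmon, and its effective lengths were not used here.

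mt-Nd3 has a copy in the nuclear genome. Gm28438, an unprocessed pseudogene on chromosome 1 that was named after its counts were seen, repeats the coding sequence of mt-Nd3 over 345 bases with 1 difference, T3C, counted from 1 at the first base of the start codon with the base of mt-Nd3 first. The first 18 bases of both are shown because this is where they part, with the differing base in capitals.
mt-Nd3: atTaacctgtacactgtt
Gm28438: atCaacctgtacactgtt
The copy held more counts than the gene. mt-Nd3 was at 151, 139, 183 and 175 CPM in POMC-C451Af/f pools and at 154, 159, 143 and 188 CPM in control pools, and Gm28438 at 267, 272, 304 and 301 CPM and at 266, 270, 296 and 288 CPM. Summed, they gave 418, 411, 486 and 477 CPM in POMC-C451Af/f pools and 420, 429, 439 and 476 CPM in control pools, or 1277 CPM per kb on average in place of 464. The sum varied less between pools than mt-Nd3 alone, with a standard deviation of log2 CPM of 0.098 against 0.162. The sum was above every nuclear member per kb, the highest of which was at 483, so that with the copy mt-Nd6 was the only exception. It stayed under mt-Nd5, at 2219 CPM per kb, the lowest of the 11 higher mitochondrial genes.

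Copies of other members held far fewer counts in most cases. Of the 102 members, 45 had at least 1 other gene that matched at least 50 percent of their coding sequence on the same strand at an identity of at least 90 percent, 35 of them nuclear and 10 mitochondrial. In 34 of these a copy held a count, but in only 3 did the copies hold at least 10 percent of the member's own counts. Besides mt-Nd3 these were Atp5g2 and Ndufb4, which are described with their complexes. The next on the same strand were Cox7c, whose copy Gm12338 held 4.85 percent of its counts, and mt-Nd4l, whose copy Gm10222 held 4.13 percent. On the opposite strand, 4930481A15Rik matches Uqcr10 and held 4.41 percent of its counts.

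Complex I takes electrons from NADH through a chain of iron-sulfur clusters to ubiquinone. Its 35 nuclear members had a median of 83.2 CPM per kb. They ran from 14.1 to 212 CPM per kb, and their log2 fold changes from -0.05 to 0.10, with 22 of the 35 above 0.

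Among the accessory subunits of the membrane arm, Ndufb8 was the highest nuclear gene of complex I at 212 CPM per kb and Ndufb4 the lowest at 14.1. With the longest transcript Ndufb9 was highest at 118 and Ndufb7 lowest at 11.7. A processed pseudogene, Ndufb4c on chromosome 15, repeats the coding sequence of Ndufb4 (ENSMUSG00000022820, chromosome 16) over 387 bases with an identity of 100 percent, and it was left out of the set. Ndufb4 stood at 13.3, 15.4, 14.7 and 12.6 CPM in POMC-C451Af/f pools and at 12.9, 14.4, 13.1 and 13.1 CPM in control pools, while Ndufb4c stood at 28.7, 26.5, 29.7 and 28.6 CPM and at 30, 30.2, 29.2 and 29.1 CPM. The pseudogene was higher in every pool. Their sum was 42.7 CPM on average, or 44.0 CPM per kb of Ndufb4, with a standard deviation of log2 CPM of 0.040 over the pools against 0.101 for Ndufb4 alone.

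Ndufb2 (ENSMUSG00000002416, chromosome 6), also of the membrane arm, varied most among complex I genes. It was at 74.2, 90.8, 57.0 and 57.9 CPM in POMC-C451Af/f pools and at 72.3, 58.9, 57.7 and 72.2 CPM in control pools. There were 4 pools between 57.0 and 58.9 CPM, 3 between 72.2 and 74.2 and 1 at 90.8, and both genotypes were found at the low and the middle level. The standard deviation of its log2 CPM over the 8 pools was 0.242, where the median was 0.059 for the nuclear genes of complex I. Its log2 fold change was 0.10, with an unadjusted p of 0.490.

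Complex II oxidises succinate and is the 1 complex of the chain that also belongs to the citric acid cycle. Sdha, the flavoprotein that binds succinate, was the highest of its 4 genes at 252 CPM per kb. The iron-sulfur subunit Sdhb was at 81.5 CPM per kb, and the membrane anchors Sdhc and Sdhd at 97.1 and 53.8. With the longest transcript Sdha stayed highest at 157, and Sdhc, at 25.0, was lowest. Sdha stood at 458, 452, 460 and 468 CPM in POMC-C451Af/f pools and at 466, 438, 456 and 452 CPM in control pools, with a log2 fold change of 0.02 and an unadjusted p of 0.475. Complex II was the steadiest of the 5 complexes across pools, with a median standard deviation of log2 CPM of 0.027, against 0.064 for complex I, 0.057 for complex III, 0.070 for complex IV, 0.058 for complex V and 0.103 for all tested genes.

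Complex III passes electrons from ubiquinol to cytochrome c. With the median length, the highest of its 8 nuclear genes per kb was Uqcrc1, a core protein of the matrix side, at 366. The lowest was Uqcrfs1, the Rieske iron-sulfur protein, at 69.5. With the longest transcript Uqcrc1 was at 78.9 CPM per kb and the highest was Uqcrh, at 129. The protein-coding transcripts of Uqcrc1 have a median length of 533 bases, and its longest transcript has 2473. Which gene is highest, and the ratio of mt-Cytb to Uqcrc1 given below, thus depend on the length used. Uqcrh, the hinge protein that binds cytochrome c1, had the smallest p of the complex, 0.135. It was at 104, 109, 112 and 98.3 CPM in POMC-C451Af/f pools and at 102, 102, 99.3 and 101 CPM in control pools. POMC-C451Af/f replicate 4 was below all controls and the other 3 pools of that genotype above them. The mitochondrial subunit mt-Cytb was 15.3, 15.7, 16.7 and 15.5 times Uqcrc1 per kb in POMC-C451Af/f pools and 15.2, 16.1, 15.9 and 16.4 times in control pools. The average of 15.9 became 73.6 with the longest transcript.

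The electron carriers at its outlet were measured beside it. Cyc1, the cytochrome c1 of complex III that the symbols do not match, averaged 127 CPM and Cycs, cytochrome c, 79.3 CPM. Neither of the 2 was called or had an unadjusted p under 0.05.

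Complex IV reduces oxygen, and its 17 nuclear genes split into a common and a restricted set. Cox4i1, the largest nuclear subunit, was the highest at 385 CPM per kb and its isoform Cox4i2, known from lung and from brain pericytes, the lowest at 1.44. The 5 restricted isoforms that are members, Cox4i2, Cox6a2, Cox6b2, Cox7a1 and Ndufa4l2, were the 5 lowest nuclear genes of the whole set per kb. Each was a small percentage of the sum with its common partner per length. This percentage was 0.375 for Cox4i2 beside Cox4i1, 0.917 for Ndufa4l2 beside Ndufa4, 1.49 for Cox6a2 beside Cox6a1, 1.89 for Cox6b2 beside Cox6b1 and 2.55 for Cox7a1 beside Cox7a2, averaged over the 8 pools. The lengths matter most for Ndufa4, which was on average 114 times Ndufa4l2 per length and 45.2 times with the longest transcripts.

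The remaining 3 restricted isoforms fell under the minimum count. Cox7b2 had 44.0 counts over the 8 pools, Cox8b 9 and Cox8c, known from testis, 3. All counts of Cox8c came from POMC-C451Af/f replicate 2. A count of 0 in a pool allows up to 0.0831 CPM there, from 3 counts in the smallest library, and covers counting error only.

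Cox6a2, the heart and skeletal muscle isoform of subunit VIa, varied most of all members with a mean of at least 1 CPM. It was at 2.54, 1.32, 4.27 and 1.78 CPM in POMC-C451Af/f pools and at 1.90, 3.6, 2.17 and 1.93 CPM in control pools. The highest values were in POMC-C451Af/f replicate 3 and control replicate 2, the pools that were also highest in mitochondrial share. The standard deviation of its log2 CPM was 0.459, and its log2 fold change 0.04 with a standard error of 0.338. Of 7 skeletal muscle markers, 5 averaged under 1 CPM, among them Ckm, the muscle creatine kinase, and Acta1 was the most abundant. The sum of the list was 4.64, 4.71, 4.46 and 5.07 CPM in POMC-C451Af/f pools and 5.27, 5.42, 5.25 and 4.66 CPM in control pools. Which cells the Cox6a2 counts came from was not tested.

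Cox4i2 and Ndufa4l2 were the members with the largest negative log2 fold changes, and neither was called. Cox4i2 was at 0.964, 0.591, 1.1 and 1.0 CPM in POMC-C451Af/f pools and at 0.876, 1.20, 1.11 and 1.59 CPM in control pools. The groups overlapped, with POMC-C451Af/f replicate 2 lowest and control replicate 4 highest, and the fit gave -0.38 ± 0.239 (SE) on the log2 scale at an unadjusted p of 0.137. The log2 fold change of Cox4i2 was -0.23 without POMC-C451Af/f replicate 2 and -0.22 without control replicate 4. Ndufa4l2, a paralogue of Ndufa4 known from hypoxia and from pericytes, was at 1.73, 1.32, 2.36 and 2.47 CPM in POMC-C451Af/f pools and at 2.12, 2.52, 2.32 and 2.78 CPM in control pools. It too was lowest in POMC-C451Af/f replicate 2 and highest in control replicate 4, with a log2 fold change of -0.31, a standard error of 0.194 and an unadjusted p of 0.139. Without POMC-C451Af/f replicate 2 the log2 fold change of Ndufa4l2 was -0.16. A list of 8 endothelial and mural markers, with Rgs5 as its most abundant gene and none under 1 CPM, summed to 301, 336, 329 and 334 CPM in POMC-C451Af/f pools and to 323, 327, 340 and 296 CPM in control pools. Its lowest pool was control replicate 4, where both isoforms were highest, and which cells their counts came from was not tested.

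Cox7a1, the muscle isoform of subunit VIIa, had the largest positive log2 fold change, 0.30, with a standard error of 0.212 and an unadjusted p of 0.184. It was at 1.51, 1.23, 1.29 and 1.17 CPM in POMC-C451Af/f pools and at 1.45, 0.944, 0.727 and 1.14 CPM in control pools. Control replicate 1 lay among the POMC-C451Af/f pools and the other controls below them. The log2 fold change of Cox7a1 was 0.48 without control replicate 1, where its unadjusted p was under 0.05, and 0.15 without control replicate 3. Cox5a, a matrix-side subunit of the common set, had the smallest p of the complex, 0.0655, with an adjusted p of 0.878. It was at 106, 102, 109 and 96.7 CPM in POMC-C451Af/f pools and at 97.2, 101, 96.7 and 94.5 CPM in control pools, a log2 fold change of 0.09. Here POMC-C451Af/f replicate 4 lay among the controls, and the other 3 pools of its genotype lay above them.

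Complex V makes ATP in a soluble head that is driven by a rotating ring in the membrane. Atp5b, the catalytic beta subunit of the head, was the highest nuclear gene of the whole set at 483 CPM per kb, with either length. Its value was 928, 909, 982 and 928 CPM in POMC-C451Af/f pools and 901, 943, 927 and 886 CPM in control pools, and the groups overlapped. Per length it was 1.71, 1.68, 1.74 and 1.69 times Atp5a1, the alpha subunit of the same head, in POMC-C451Af/f pools, and 1.68, 1.73, 1.70 and 1.67 times in control pools. The mitochondrial subunit mt-Atp6 was 19.1 times Atp5b per kb on average. Atp5k, the e subunit of the membrane part, had the smallest p of the complex, 0.198. It was at 39.7, 39.8, 40.6 and 35.7 CPM in POMC-C451Af/f pools and at 39.3, 36.1, 32.4 and 38.8 CPM in control pools.

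The ring subunit c is encoded by 3 genes whose mature proteins are the same. Per length Atp5g3 was at 231 CPM per kb, Atp5g1 at 38.5 and Atp5g2 at 6.12, the lowest nuclear gene of complex V, and the order was the same with the longest transcript, at 193, 21.8 and 5.55. A copy of Atp5g2 held more counts than the gene. Gm10175, a transcribed processed pseudogene on chromosome 7 that was named after its counts were seen, repeats the coding sequence of Atp5g2 (ENSMUSG00000062683, chromosome 15) over all 438 bases with an identity of 100 percent, and it held 1460 percent of the counts of Atp5g2.

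Atp5g2 was at 4.14, 4.23, 3.15 and 4.64 CPM in POMC-C451Af/f pools and at 5.63, 4.82, 4.57 and 2.24 CPM in control pools. Gm10175 was at 63.2, 63.1, 62.5 and 58.4 CPM and at 63.2, 63.0, 58.1 and 62.8 CPM. Control replicate 4 had the lowest value of Atp5g2 and control replicate 1 the highest, with no such spread in the pseudogene. The standard deviation of log2 CPM was 0.365 for Atp5g2, 0.052 for Gm10175 and 0.049 for their sum. The sum averaged 66.0 CPM, or 96.6 CPM per kb of Atp5g2, which would place it between Atp5g1 and Atp5g3. Which of the loci the reads came from was not tested for Atp5g2, Ndufb4 or mt-Nd3, since gene sums were used here.

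The 8 Ndufaf genes, which act in building complex I and are not subunits of it, ran from 5.52 CPM per kb for Ndufaf6 to 24.7 for Ndufaf3. Besides Ndufaf1 none had an unadjusted p under 0.05. Beyond the set, 42 assembly genes of complexes I to V were looked up, of which 41 passed the filter. None was called. At an unadjusted p under 0.05 in the edgeR fit there were 0 higher and 2 lower, where 2.70 and 2.39 percent of all genes were. The most abundant genes of these lists were Foxred1 for complex I, Sdhaf2 for complex II, Uqcc1 for complex III, Coa5 for complex IV and Atpaf1 for complex V. Pet117, an assembly factor of complex IV, had 0 counts in all 8 pools.

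The 2 lower genes belonged to complexes I and IV. Tmem126b, which builds the membrane arm of complex I together with Ndufaf1, was at 37.1, 36.9, 37.0 and 35.9 CPM in POMC-C451Af/f pools and at 42.3, 40.8, 43.8 and 42.1 CPM in control pools. No POMC-C451Af/f pool reached the lowest control. On the log2 scale the difference was -0.20 ± 0.0343 (SE), at an unadjusted p of 0.000121 and an adjusted p of 0.188. In DESeq2 its adjusted p was 0.0122, at a log2 fold change of the same size, below the 0.5 needed, so neither tool called it. It lies on chromosome 7 of GRCm38 from 90467438 to 90476001. Coa6, a copper-binding factor for subunit II of complex IV, was at 10.7, 9.79, 9.54 and 9.43 CPM in POMC-C451Af/f pools and at 11.2, 10.9, 10.7 and 11.2 CPM in control pools. The nearest pools of the genotypes were equal to 3 digits, and the log2 fold change was -0.15 with an unadjusted p of 0.0350 and an adjusted p of 0.878.

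Of 23 genes that replicate, transcribe and process the mitochondrial genome, all were tested, none was called and 0 had an unadjusted p under 0.05. The most abundant was Lrpprc, which stabilises mitochondrial mRNAs, at 87.3, 87.4, 89.2 and 87.8 CPM in POMC-C451Af/f pools and at 81.1, 85.5, 84.8 and 88.8 CPM in control pools. The summed level of the list was between 520 and 532 CPM in every pool, a much narrower range than that of the mitochondrial mRNAs. The mitochondrial ribosomal RNAs, which poly(A) selection captures only in part, averaged 2422 (mt-Rnr1) and 2523 (mt-Rnr2) CPM per kb. Their sum was 6291, 6028, 6270 and 6285 CPM in POMC-C451Af/f pools and 6270, 6367, 6250 and 6679 CPM in control pools. It was highest in control replicate 4 and not in POMC-C451Af/f replicate 3, the pool highest in mitochondrial mRNA.

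Of 10 nuclear regulators of the pathway none was called. At an unadjusted p under 0.05 in the edgeR fit, 1 was higher, where 2.70 percent of all genes were. The 1 regulator was Esrrg, an orphan nuclear receptor that binds the promoters of many of these genes. Esrrg was at 25.9, 25.3, 37.3 and 35.2 CPM in POMC-C451Af/f pools and at 19.7, 27.5, 25.5 and 25.9 CPM in control pools, with a log2 fold change of 0.32, an unadjusted p of 0.0411 and an adjusted p of 0.878. POMC-C451Af/f replicates 3 and 4 stood above all other pools, and replicates 1 and 2 lay among the controls. The most abundant of the 10 was Yy1, at a mean of 72.3 CPM, with a log2 fold change of 0.00.

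Pools of the same genotype differed from each other. Each gene was set against its own mean of log2 CPM over the 8 pools. Of the 13 mitochondrial genes, 2, 0, 13 and 8 were above their mean in POMC-C451Af/f replicates 1 to 4 and 0, 8, 8 and 7 in control replicates 1 to 4. POMC-C451Af/f replicate 3 was the highest pool for 10 of them and replicate 2 the lowest for 10. Of the 89 nuclear genes, 69, 49, 75 and 15 were above their mean in POMC-C451Af/f pools and 53, 65, 25 and 16 in control pools. For these, POMC-C451Af/f replicate 3 was the highest pool for 39 genes and replicate 4 the lowest for 32. Of all 18637 tested genes, POMC-C451Af/f replicate 3 was the highest pool for 2957. POMC-C451Af/f replicate 2 was the lowest for 1910 of all tested genes and replicate 4 for 2973. The median deviations of the genomes had opposite signs in all pools but POMC-C451Af/f replicate 3 and control replicate 2. In POMC-C451Af/f replicate 4 the median was 0.064 for mitochondrial and -0.049 for nuclear genes, and in POMC-C451Af/f replicate 1 it was -0.047 and 0.027. In POMC-C451Af/f replicate 3 both were above 0, at 0.15 and 0.044, as in control replicate 2, at 0.018 and 0.026. These deviations are small beside a log2 fold change of 0.5.

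Marker lists of cell types moved across the same pools. A list of 8 midbrain dopaminergic markers, of which Th was the most abundant, none was at 0 in all pools and only Pitx3 averaged under 1 CPM, summed to 225, 173, 353 and 262 CPM in POMC-C451Af/f pools and to 158, 132, 175 and 198 CPM in control pools. In this list 7 of the 8 genes were higher at an unadjusted p under 0.05 and none was called in the edgeR fit. Over all tested genes 2.70 percent were higher and 2.39 percent lower at that p. Th was at 60.3, 55.4, 90.8 and 73.1 CPM in POMC-C451Af/f pools and at 47.0, 42.0, 50.9 and 51.1 CPM in control pools, with a log2 fold change of 0.55 and an unadjusted p of 0.00203. Its groups did not overlap, and its fold change was past the 0.5 needed for a call, so that only the adjusted p, 0.878 in edgeR and 0.443 in DESeq2 on the same filtered counts, kept it from one. A list of 6 oligodendrocyte markers, with Mbp, the myelin basic protein, as its most abundant gene and none under 1 CPM, summed to 5672, 5572, 6885 and 6293 CPM in POMC-C451Af/f pools and to 4799, 5660, 5726 and 5688 CPM in control pools. Of these, 3 were higher at an unadjusted p under 0.05 and none was called. Both lists were highest in POMC-C451Af/f replicate 3, the pool highest for 10 of the 13 mitochondrial genes, and next in replicate 4, while the hypothalamic list was lowest in those pools. In the hypothalamic list 2 of 15 tested genes, Pomc and Trh, were lower at an unadjusted p under 0.05 and none was called. Pomc was at 49.5, 50.2, 35.8 and 30.6 CPM in POMC-C451Af/f pools and at 98.9, 49.7, 50.5 and 50.8 CPM in control pools. Without control replicate 1, the pool also highest in pituitary markers, its log2 fold change was -0.28 in place of -0.59 and its unadjusted p 0.0971. The part of the marker lists in the pool differences was not tested.

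With that midbrain list's mean log2 CPM added to the fit as a covariate, 6 members had an unadjusted p under 0.05, all lower in POMC-C451Af/f pools, where 1.34 percent of all genes were, and none was called. They were mt-Nd2, mt-Nd3, mt-Nd4 and mt-Nd5 with Cox4i2 and Ndufa4l2, and the lowest log2 fold change of a member was then -0.84 in place of -0.38. The median log2 fold change of the 13 mitochondrial members was then -0.073, and it was -0.068 with POMC-C451Af/f replicates 3 and 4 both left out, an alternative chosen after seeing the data.

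**Figure D5:**
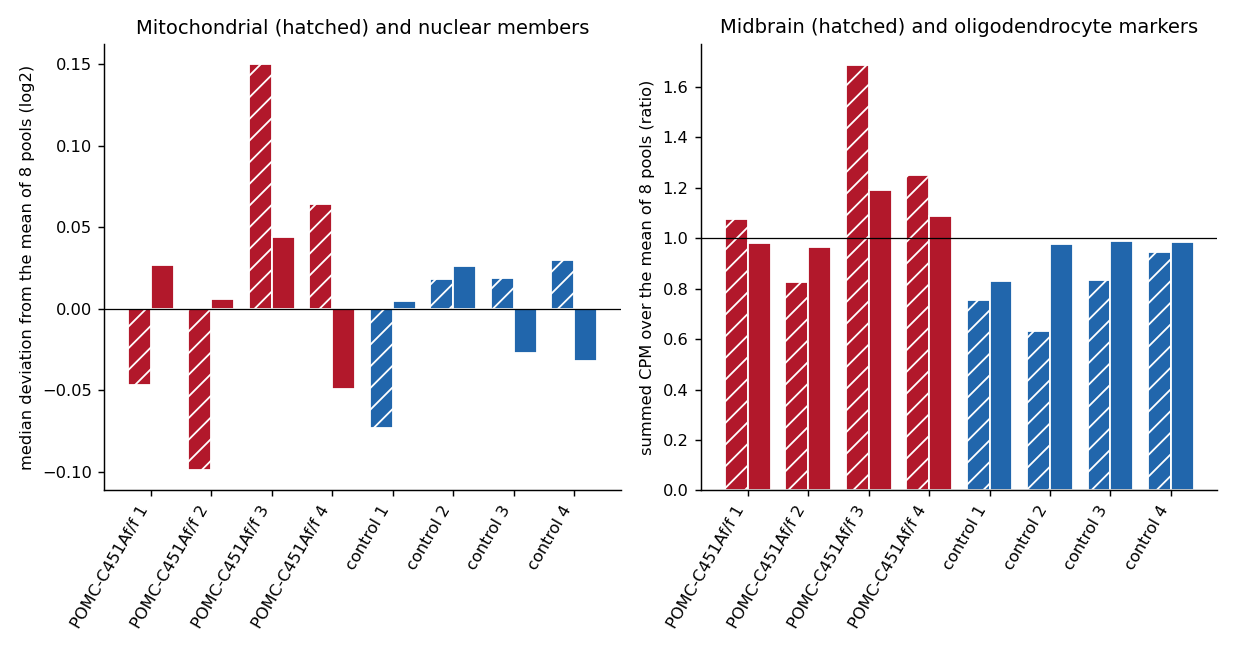
Left, median deviation of the 13 mitochondrial (hatched) and 89 nuclear members from their mean log2 CPM over the 8 pools; right, summed CPM of the midbrain dopaminergic (hatched) and oligodendrocyte marker lists over their mean of the 8 pools (red, POMC-C451Af/f; blue, control). POMC-C451Af/f replicate 3 is highest in all 4 measures, and replicate 4 is above 0 for mitochondrial (0.064) and below it for nuclear members (-0.049).

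The other marker lists were looked up in the edgeR fit, where 2.70 percent of all genes were higher and 2.39 percent lower at an unadjusted p under 0.05. Of 9 neuronal markers, the vesicular glutamate transporter Slc17a6 was higher at an unadjusted p of 0.0479, and the list, led by Snap25, summed to between 3858 CPM in control replicate 1 and 4470 CPM in POMC-C451Af/f replicate 4. Of 5 astrocyte markers, led by Slc1a3, the water channel Aqp4 was higher, at 145, 139, 163 and 141 CPM in POMC-C451Af/f pools and 122, 118, 118 and 124 CPM in control pools, with an adjusted p of 0.198. In DESeq2 its adjusted p was 0.000194, at a log2 fold change of 0.29, below the 0.5 needed. Aldh1l1, a folate enzyme of astrocytes, was lower at an unadjusted p of 0.0301, and the list as a whole was between 1230 and 1303 CPM in every pool. Of 5 microglial markers, led by Csf1r, 2 were higher at an unadjusted p under 0.05, Cx3cr1 and P2ry12, with sums from 164 to 178 CPM. Neither the 4 ependymal nor the 5 choroid plexus markers, led by Foxj1 and Clic6, held a gene with an unadjusted p under 0.05. Of the 2 brown fat markers, Cidea was the most abundant, averaging 4.42 CPM, with an unadjusted p of 0.539 in the edgeR fit. The other, Ucp1, the uncoupling protein, averaged 0.0752 CPM. Of 8 pituitary markers, led by Prl, prolactin, 4 were tested, with a median log2 fold change of -1.2 and 0 at an unadjusted p under 0.05. This median rests on control replicate 1, since without it the value was 0.73, with 4 of 4 above 0. The list summed to 223, 31.6, 16.9 and 189 CPM in POMC-C451Af/f pools and to 1451, 96.0, 21.2 and 32.6 CPM in control pools. No gene of these lists was called by edgeR or by DESeq2 as run here.

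Most members were steadier between pools than other genes. The standard deviation of log2 CPM over the 8 pools was at most 0.1 in 86 of the 102 members, or 84.3 percent, against 48.4 percent of all tested genes, a set that holds many genes of lower counts. It was over 0.2 in 6 members. Of these, 5 are the members with the largest spread among those with a mean of at least 1 CPM, Cox6a2, Atp5g2, Ndufa4l2, Cox4i2 and Ndufb2, and 4 of the 5 had a mean under 5 CPM. The nuclear members are spread over 19 chromosomes, with at most 8 on any 1 of them.

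The promoters of nuclear members were searched for 4 motifs of 9 bases bound by factors known to act on this pathway, on both strands. Windows of 300 bases, from 250 before to 50 after the start, were taken from RefSeq on GRCm38.p6. Of the 89 nuclear members, 73 had a window, matched by Ensembl identifier or, failing that, by symbol or synonym. GCGCATGCG, read by NRF1, was in 10 of the 73 windows, or 13.7 percent, against 1.81 percent of all 27025 promoter windows. AAGATGGCG, read by YY1, was in 7 (9.59 percent, against 1.48 percent). TCAAGGTCA, read by the estrogen-related receptors, was in 2 (2.74 percent, against 0.407 percent), and CCGGAAGTG, read by ETS factors such as GABP, also in 2 (2.74 percent, against 2.06 percent). Any of the 4 was in 21 windows, or 28.8 percent, against 5.52 percent of all. The 7 YY1 matches all lay on the strand of the gene and within the 50 bases after the start. The motif itself holds an ATG, and whether these matches are start codons was not tested. The windows of all promoters were not matched to the members in level or base composition. A match is a description of the letters, and binding was not measured.

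By complex, 8 of 31 windows of complex I held a motif, 1 of 3 of complex II, 3 of 5 of complex III, 1 of 12 of complex IV and 5 of 15 of complex V, with 3 of 7 for the Ndufaf genes. Of the 7 YY1 motifs, 5 were in complex I. The member with the highest mean CPM for each motif is shown, 5 prime to 3 prime on the strand of the gene, with the motif or its reverse complement in capitals. They are Uqcrc1 for NRF1 (chr9:108936398-108936697, plus strand), where matches on both strands overlap, Atp5j2 for YY1 (chr5:145191492-145191791, minus strand), Atp5g3 for the estrogen-related receptors (chr2:73911277-73911576, minus strand) and Uqcrh for ETS factors (chr4:116075021-116075320, minus strand).
Uqcrc1: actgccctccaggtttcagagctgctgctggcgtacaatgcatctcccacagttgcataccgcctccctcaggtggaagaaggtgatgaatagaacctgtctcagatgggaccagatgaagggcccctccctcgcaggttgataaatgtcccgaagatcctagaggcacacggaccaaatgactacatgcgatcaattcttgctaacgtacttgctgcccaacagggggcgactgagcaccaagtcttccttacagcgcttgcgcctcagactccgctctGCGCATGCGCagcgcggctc
Atp5j2: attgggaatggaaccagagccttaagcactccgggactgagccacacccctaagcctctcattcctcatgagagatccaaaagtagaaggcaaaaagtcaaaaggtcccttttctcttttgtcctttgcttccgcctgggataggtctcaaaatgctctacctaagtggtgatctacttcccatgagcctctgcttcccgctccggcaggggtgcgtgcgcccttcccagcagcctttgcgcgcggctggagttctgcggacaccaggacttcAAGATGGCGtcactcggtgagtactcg
Atp5g3: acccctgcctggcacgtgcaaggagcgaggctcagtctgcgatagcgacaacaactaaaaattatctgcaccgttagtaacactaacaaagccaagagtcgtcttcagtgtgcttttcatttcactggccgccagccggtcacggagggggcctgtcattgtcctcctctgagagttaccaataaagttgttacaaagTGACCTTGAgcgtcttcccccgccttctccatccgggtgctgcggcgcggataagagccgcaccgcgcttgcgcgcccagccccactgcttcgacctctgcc
Uqcrh: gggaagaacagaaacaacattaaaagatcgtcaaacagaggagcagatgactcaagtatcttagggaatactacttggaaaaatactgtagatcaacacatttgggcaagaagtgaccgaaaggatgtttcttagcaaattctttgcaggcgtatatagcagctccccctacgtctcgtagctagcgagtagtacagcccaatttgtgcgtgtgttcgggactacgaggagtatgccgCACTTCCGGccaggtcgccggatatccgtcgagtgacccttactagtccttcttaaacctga
None of these 4 genes had an unadjusted p under 0.05 between the genotypes. Atp5g3, with the estrogen-related receptor motif, was at 170, 172, 168 and 162 CPM in POMC-C451Af/f pools and at 166, 167, 165 and 159 CPM in control pools, and the groups overlapped.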

How the data were processed

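The authors deposited the estimated count of each gene in each pool, made per the submitters' processing notes with FastQC 0.12.1, Salmon 1.10 and R 4.4 and summed to genes without normalization; their deposited comparison table holds DESeq2 1.40 results and was not used. Of the 55890 gene identifiers, 51424 matched GENCODE M21 on GRCm38, which gave symbols, positions and lengths; the authors' annotation is on GRCm39. Counts were rounded, filtered with filterByExpr (minimum count 10, minimum total 15), scaled with TMM and tested with edgeR 4.0.16 (quasi-likelihood, genotype only, no offset for transcript length) in R 4.3.3, with Benjamini-Hochberg adjustment over 18637 genes and calls at FDR 0.05 and an absolute log2 fold change over 0.5. Standard errors are the size of the fitted log2 fold change over the square root of F. The procedure was tested on simulated data. Standard deviations of log2 CPM use a pseudocount of 0.5 CPM. Coding sequences were compared with all GENCODE transcripts by blastn 2.17.0. DESeq2 1.42.0, other scalings, filters and each pool left out in turn were run as alternatives.

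Members and lists were chosen with earlier results of these data known. Genes named are the mitochondrial protein genes, the highest and lowest nuclear gene per length of each complex, members with an unadjusted p under 0.05 and the smallest p of each complex, restricted isoforms and their partners, the 5 members most variable between pools, Sdha to Sdhd, the genes of subunit c, and genes next to the minimum count, and in other lists those with an unadjusted p under 0.05 and the most abundant.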

Additional observations from a re-analysis of the deposited data

Results flagged for a closer look

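In 146 groups of 4 pools (each named gene, share and marker list in each genotype), a pool was set apart when its distance to the nearest other pool, divided by the range of the group, was above Dixon's 95 percent critical value for 4 samples. Chance gives about 1 in 20, or 7.3 groups, and 13 were found.

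For nuclear members as a whole, POMC-C451Af/f replicate 4 stood apart at 0.838 percent of counts, with the others from 0.885 to 0.894 (ratio 0.850). In the same pool Sdhc was at 76.4 CPM, with the others from 79.6 to 79.9 (0.928), and the assembly genes of complex IV summed to 435 CPM, with the highest of the others at 453 (0.854). For mt-Cytb, POMC-C451Af/f replicate 3 was at 7265 CPM and the others from 6368 to 6482 (0.873). POMC-C451Af/f replicate 2 was at 68.4 CPM for Sdhd, above 64.5 to 65.0 (0.872), and at 6028 CPM for the mitochondrial ribosomal RNAs, below 6270 to 6291 (0.922). Control replicate 2 was at 6287 CPM for mt-Co2, above 5885 to 5925 (0.900), and at 3.6 CPM for Cox6a2, above 1.90 to 2.17 (0.844). Control replicate 1 was at 457 CPM for the assembly genes of complex IV, where the others were at 453 (0.971).

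Marker lists gave the remaining 4. Control replicate 1 was lowest for oligodendrocyte markers, at 4799 CPM against 5660 to 5726 (0.929), and highest for choroid plexus markers, at 37.9 CPM against at most 31.2 (0.843), and for pituitary markers, at 1451 CPM against 21.2 to 96.0 (0.948). Ependymal markers were lowest in POMC-C451Af/f replicate 4, at 47.2 CPM against 55.4 to 56.3 (0.900).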

How the results depend on the processing

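The count of called members was 0 in the first fit and in all 18 others, with FDR alone and without the Ndufaf genes, and the smallest adjusted p of a member over all fits was 0.532. At an unadjusted p under 0.05 there was 1 member higher and 0 lower, where 2.70 and 2.39 percent of all genes were. With the replicate number as a block (replicate block), 2 were higher (3.41 percent of all genes), mt-Atp8 and mt-Nd6 and not Ndufaf1; correlations of the residuals did not pair pools of the same number (0.14, -0.18, -0.11 and 0.24). With the midbrain list as a covariate 0 were higher and 6 lower (1.62 and 1.34 percent of all genes). With both pools highest in the midbrain list left out, chosen after seeing the data, 2 were higher and 4 lower (1.66 and 1.38 percent of all genes). Without the Ndufaf genes 0 were higher. Leaving out 1 pool at a time gave 0 to 4 higher and 0 to 1 lower, beside 1.69 to 5.03 percent of all genes higher and 1.47 to 4.35 percent lower. The 4 were without POMC-C451Af/f replicate 4, where 2.25 percent of all genes were higher. The cause was not tested. Of 164 medians under alternatives, none moved by more than the spread between pools. Of 743 log2 fold changes of 42 named members, 17 moved by more than that spread, 46 in 16 members had the opposite sign to the first fit, and none was called. With counts of the mitochondrial genome left out of the denominator, the nuclear share was 0.942 percent in POMC-C451Af/f pools and 0.935 percent in controls. Ratios of mitochondrial to nuclear levels per length with the longest transcript were 79.8 for all, 47.2 for complex I, 65.9 for complex III, 92.1 for complex IV and 98.7 for complex V, since longer transcripts lower the nuclear values. Sums with copies, also chosen after seeing the data, gave 96.6 CPM per kb for Atp5g2, 44.0 for Ndufb4 and 1277 for mt-Nd3. Differences in a minority of cells were not tested.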

Other observations

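Among symbols that matched the set but are not protein genes, Ndufb1-ps, annotated as a long noncoding RNA with a bidirectional promoter, held 10217 counts over the 8 pools. The remaining 12 are processed pseudogenes, Ndufb4c among them. The first codon of mt-Nd1 was GTG, of mt-Nd2 ATA, of mt-Nd3 ATT and of mt-Nd5 ATC, and the other 9 mitochondrial genes began with ATG in the GENCODE transcripts.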
